A study of Saccharomyces cerevisiae with 5 samples.

Results

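The kinetochore and cohesin genes of budding yeast, S. cerevisiae, were examined as 48 listed genes in 5 groups, chosen by the gene name printed in the scanner files. By that name 45 of the 48 were found among the 6256 genes of the array, in groups called Centromere-proximal (14 genes), Ndc80/Mis12 (8), Dam1 (8), Checkpoint (9) and Cohesin (6). The Ndc80 and Dad4 genes are printed on the array under the older names TID3 and HSK2. They were matched by systematic name (YIL144W and YDR320C-A), and their values are given with that remark but are left out of the counts. No probe matched HSK3, a small Dam1 complex subunit, so it is not analysed here.

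The kinetochore is the protein assembly that ties each centromere to spindle microtubules. In budding yeast a single centromeric nucleosome per chromosome carries it, and the layers run from the DNA-bound CBF3 complex and Ctf19 complex through the Mis12 and Ndc80 complexes to the Dam1 ring on the microtubule. Cohesin is the ring that holds sister chromatids together from replication until anaphase, and the spindle checkpoint delays anaphase until every kinetochore is attached.

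Total RNA of strain Sigma 1287b, L5366 (the study's text spells the strain Sigma1278b), labelled with Cy3, was hybridised against genomic DNA of the same strain, labelled with Cy5, on 5 two-colour arrays that form 1 group. Cells were taken in mid-log growth at 30 °C in rich medium, and dyes were not swapped. Of the 3 slides the first held array 1, the second arrays 2 and 3, and the third arrays 4 and 5, which were also the only ones scanned in a second session. Nothing in the labels says that the 5 RNA samples came from separate cultures, so the SD and p-values measure the spread between these arrays, which may be technical.

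The level of a gene is log2 of Cy3 over Cy5 at its probe, after background subtraction and quantile normalization, minus the level of the median gene on that array. A level of 0 is thus the median gene, and 1 unit is a 2-fold difference. It is a ratio of RNA to genomic DNA at the same probe and is not corrected for transcript length. No synchronisation of the cells is described, and in such a bulk sample a low level from few expressing cells and a low level in every cell cannot be told apart.

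As facts of the whole series, the 5 arrays correlated across genes at Pearson's R between 0.992 and 0.998, and the RNA channel was well above background in 90.9% to 98.8% of gene spots. Most of the 6 growth-state genes examined were high in this population and the 5 sporulation genes examined were low. RPL3, a ribosomal protein gene, stood at 5.67 ± 0.063 (SD, n = 5), the highest of the 6 growth-state genes examined, and CLN2, a G1 cyclin gene, at -0.74 ± 0.20, the lowest. Of the sporulation genes, SPS1 and SPS4 had RNA signal well above background on only 3 of 5 arrays. All 5 sporulation genes lay below the median gene, from IME2, a meiotic kinase gene (-1.55 ± 0.073), to SPS1 (-3.75 ± 0.11), where 5 of 6 growth-state genes lay above it. This contrast was lost with loess normalization within each array, a correction for trends with brightness, which left 2 of the 6 growth-state genes and 3 of the 5 sporulation genes above 0. TDH3, a glycolytic gene, went from 5.15 ± 0.10 to -0.84 with loess and to -0.91 with the scanner software's processed signals, so these settings moved the known markers of the growth state as well as the members.

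Kinetochore and cohesin transcripts lay around and below the middle of the transcriptome, in a narrow band. Their median level was -0.41, -0.36, -0.39, -0.28 and -0.39 on arrays 1 to 5, with a mean of -0.36 ± 0.052 (SD, n = 5), below the median gene on every array. Of the 45 genes, 14 (31.1%) were above the median gene and 26 (57.8%) below it in the limma fit at an adjusted p of 0.05, and 5 passed in neither direction. Over all 6256 genes the same fit called 47.7% above and 47.6% below. The highest member was SPC105 at percentile 70.0 of all genes and the lowest was IPL1 at percentile 13.7. SMC3 was about level with SPC105, at percentile 69.9, and lay above it on arrays 1 and 3. No member stood above the 75th percentile, 8 stood below the 25th, and 73.3% lay within 1 log2 unit of the median gene against 43.3% of all genes. RNA signal was well above background on all 5 arrays for all 45 members, and for 90.7% of all genes.

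On the RNA channel alone 1 member stood above the 75th percentile and 6 below the 25th, with 9 members called above the median gene and 29 below, where 47.2% and 47.3% of all genes were. The narrow band was lost with processed signals and with loess, each of which placed 9 members above the 75th percentile. With loess, 22 members were called above the median gene and 19 below, where 45.5% and 45.7% of all genes were, and 73.3% of members lay within 1 log2 unit against 76.0% of all genes.

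**Figure D1:**
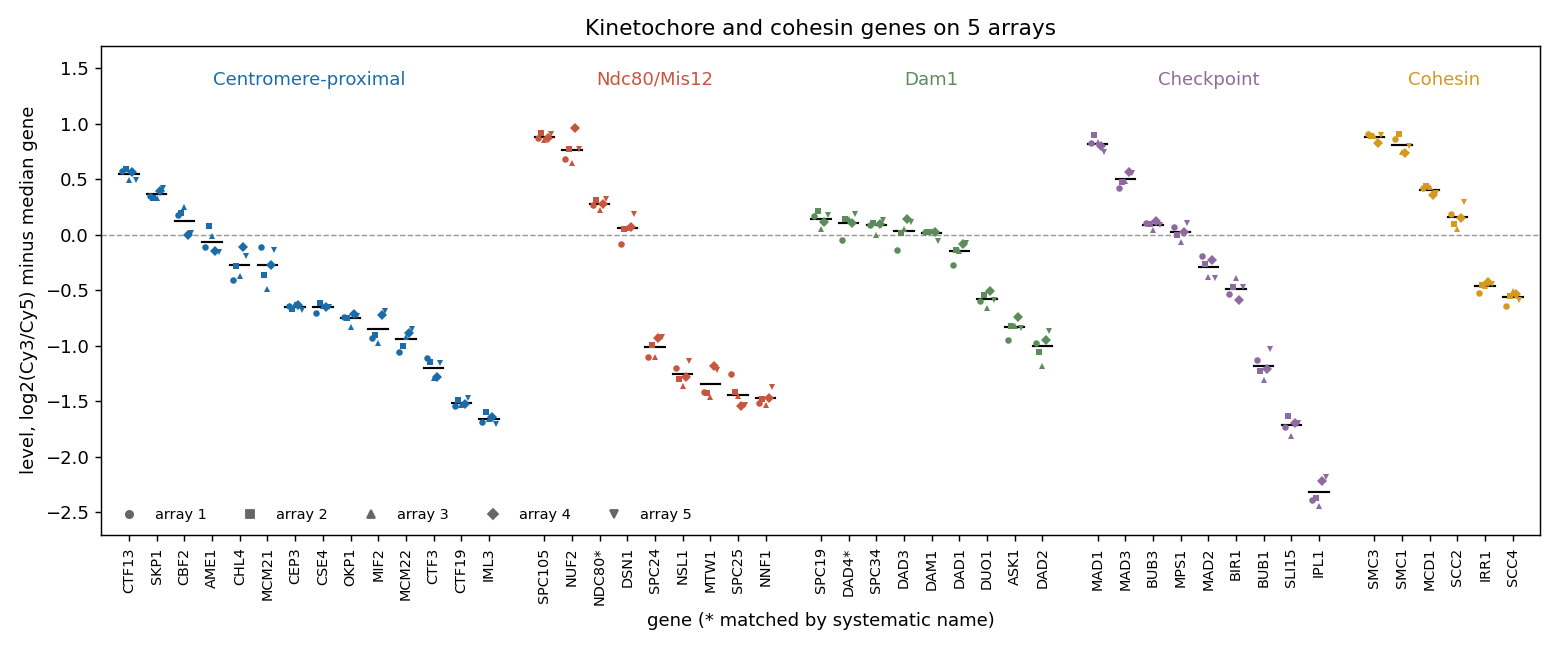
Level (log2 of Cy3 over Cy5 minus the median gene) of the 47 matched genes on each of 5 arrays, in their 5 groups, with a bar at the mean of the arrays. All points lie between -2.44 and 0.96, and the Ndc80/Mis12 group falls into an upper and a lower set.

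The outermost groups held their places on the arrays. Cohesin was highest and the Ndc80/Mis12 group lowest on every array. The Cohesin median was 0.30, 0.27, 0.24, 0.25 and 0.34 on arrays 1 to 5 (0.28 ± 0.039), above the median gene on each. The Dam1 median was -0.21, -0.059, -0.075, -0.025 and -0.070 (-0.087 ± 0.070) and the Checkpoint median -0.20, -0.26, -0.38, -0.23 and -0.39 (-0.29 ± 0.087), both below 0 on every array but close to it. The Centromere-proximal median was -0.67, -0.64, -0.63, -0.64 and -0.67 (-0.65 ± 0.018), and the Ndc80/Mis12 median -1.15, -1.15, -1.23, -1.05 and -1.03 (-1.12 ± 0.083). These lowest groups lay apart from the rest on each array.

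Within arrays, the Cohesin median exceeded the Ndc80/Mis12 median by 2.64-fold, a difference of -1.40 ± 0.068 for Ndc80/Mis12 minus Cohesin, and it exceeded the Centromere-proximal median by 1.91-fold, a difference of -0.93 ± 0.056. Of the 10 differences between groups, 9 kept their sign on all 5 arrays. The exception was Dam1 minus Checkpoint (0.20 ± 0.13), which was -0.012 on array 1 and between 0.20 and 0.32 on the others. Group medians are described and carry no test.

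Cohesin stayed the highest group in all 10 ways of computing levels that used all 5 arrays, and Ndc80/Mis12 the lowest in 9, the exception being the RNA channel alone (-0.76, against -0.84 for Centromere-proximal). The places between them were less fixed. The Centromere-proximal median was -0.019 with processed signals and 0.14 with loess, and the Checkpoint median 0.015 with loess, so their sign or order depended on the processing.

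**Figure D2:**
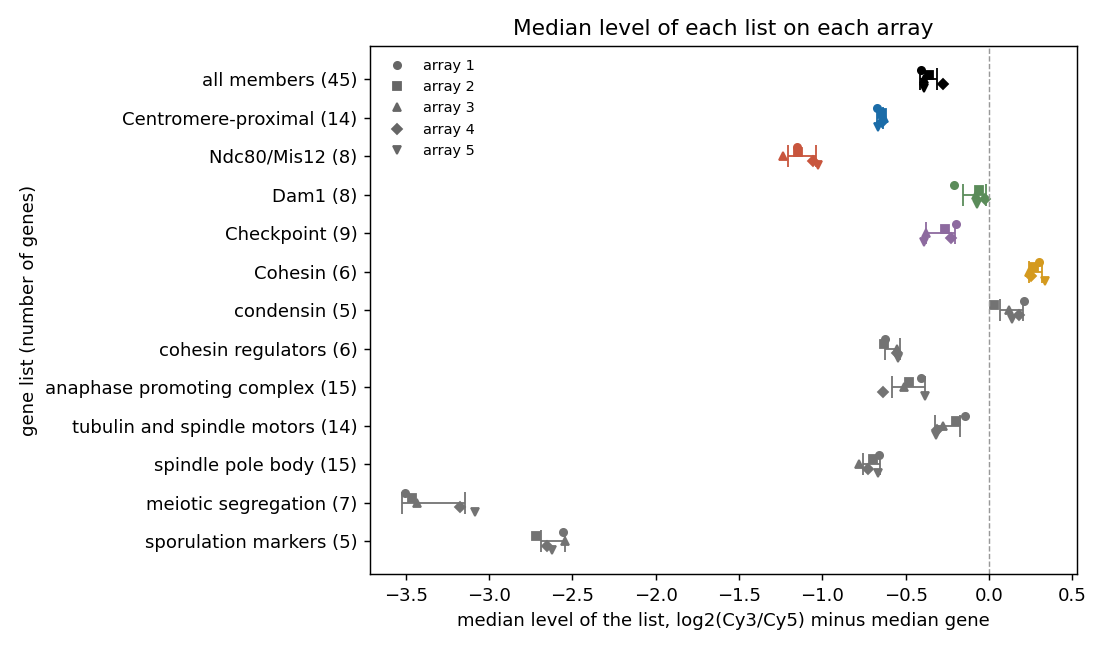
Median level of each gene list on each of the 5 arrays (points), with the mean and SD over arrays (horizontal bars) and the number of genes in parentheses. Cohesin and condensin lie above 0 on every array, and the meiotic and sporulation lists lie far below the mitotic ones.

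Of the 14 Centromere-proximal genes, 3 were above and 10 below the median gene. These proteins mark the centromere and bind it. CSE4 encodes the histone H3 variant of the centromeric nucleosome. It was at -0.70, -0.61, -0.64, -0.65 and -0.65 on arrays 1 to 5 (-0.65 ± 0.033, 0.636 times the median gene, limma adjusted p = 2.93e-08). The values were tightly grouped and all below 0.

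The CBF3 complex, made of Cbf2, Cep3, Ctf13 and Skp1, recognises the centromere sequence itself, and its genes spanned both sides of the median. CTF13, the gene of the F-box subunit, was the highest of the group at 0.57, 0.59, 0.49, 0.57 and 0.49 (0.54 ± 0.048, 1.46-fold over the median gene, limma adjusted p = 1.88e-07). Every array had it above 0. Its genomic DNA signal was at percentile 1.93 of all genes and its RNA signal at 36.2, and on the RNA channel alone it stood at -0.58, on the other side of the median. The part of the genomic DNA signal in its level was not tested.

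SKP1, which also serves SCF ubiquitin ligases outside the kinetochore, was at 0.36 ± 0.041 with the strongest RNA signal of the members, at percentile 78.8. Its sign rested on the processing, since it fell to -0.30 with normexp background correction, -0.94 with processed signals and -1.28 with loess, while the RNA channel alone placed it at 1.36. CBF2, the gene of the largest CBF3 subunit, was at 0.18, 0.19, 0.25, -0.0061 and 0.015 (0.13 ± 0.11, limma adjusted p = 0.025). Arrays 1 to 3 were above 0 and arrays 4 and 5 at about 0. Its call rested on few arrays, since leaving out array 1, 2 or 3 gave an adjusted p of 0.0772 to 0.0814, and loess turned it to -0.085. CEP3, the zinc-cluster subunit that contacts DNA, was at -0.65 ± 0.026, close to CSE4, but stood above the median gene with processed signals (0.20) and loess (0.46), where CSE4 stayed below it (-0.51 and -0.62).

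MIF2 encodes the CENP-C protein, which links the centromeric nucleosome to the outer layers. It was among the 3 members that varied most between arrays, at -0.93, -0.90, -0.98, -0.72 and -0.69 (-0.85 ± 0.13, limma adjusted p = 3.19e-07). Arrays 4 and 5 were the highest. Loess brought it to 0.0052.

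None of the 8 Ctf19 complex genes was above the median gene and 7 were below it, with a median of -0.85 ± 0.050, where the genes of Cse4, Mif2 and CBF3 together had -0.25 ± 0.062. That order turned with processed signals (0.092 against -0.12) and with loess (0.25 against -0.040), which placed 6 of the 8 Ctf19 genes above 0. This complex builds the inner kinetochore on the centromeric nucleosome and helps to bring cohesin to the flanking chromatin. IML3, whose product pairs with Chl4, was lowest at -1.68, -1.60, -1.66, -1.64 and -1.70 (-1.66 ± 0.040, 0.317 times the median gene, limma adjusted p = 8.19e-11). All 5 values lay close together, and the genomic DNA signal was at percentile 91.4.

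CTF19 followed at -1.51 ± 0.033, then CTF3 at -1.20 ± 0.083 and MCM22 at -0.94 ± 0.087, whose products form a subcomplex. MCM21, partner of CTF19, had the largest spread of all members, at -0.11, -0.36, -0.49, -0.28 and -0.14 (-0.28 ± 0.16, limma adjusted p = 0.0015). Arrays 1 and 5 were nearest to 0 and array 3 farthest. It reversed to 0.66 with processed signals and to 0.92 with loess, and its genomic DNA signal was at percentile 8.24. OKP1 and AME1, the essential pair of the complex, were at -0.75 ± 0.045 and -0.069 ± 0.10 (with loess 0.56 and 1.07), and AME1 was the only Centromere-proximal gene to pass in neither direction (limma adjusted p = 0.132). CHL4 was at -0.27 ± 0.12. Of the 13 neighbouring pairs in the order of the group, 8 had the same order on all 5 arrays, and in 6 the values of the pair overlapped between arrays.

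Of the 8 Ndc80/Mis12 genes 2 were above and 5 below the median gene. These complexes form the bridge from the inner kinetochore to the microtubule, and with NDC80 their 9 genes split into 2 sets with an empty stretch of 1.07 log2 units between them. SPC105, NUF2, NDC80 and DSN1 lay between 0.057 and 0.88, and SPC24, NSL1, MTW1, SPC25 and NNF1 between -1.47 and -1.01. Subunits of the same complex fell on both sides.

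SPC105 encodes the scaffold that recruits the Bub checkpoint proteins and was the highest of all members as reported and under 4 of the 9 alternatives, at 0.87, 0.92, 0.85, 0.87 and 0.91 (0.88 ± 0.030, 1.84-fold over the median gene, limma adjusted p = 3.33e-09). The 5 arrays agreed closely. On the RNA channel alone it was at 0.044 and no longer passed (adjusted p = 0.37), and its genomic DNA signal was at percentile 3.94.

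In the Ndc80 complex itself, a rod with a microtubule-binding head, the head subunits were higher than the base. NDC80, matched by systematic name, was at 0.26, 0.31, 0.22, 0.28 and 0.32 (0.28 ± 0.040, limma adjusted p = 1.44e-05), above 0 on each array, and NUF2, its partner in the head, at 0.77 ± 0.12. NDC80 was below NUF2 on all 5 arrays, with a difference of -0.49 ± 0.11 for NDC80 minus NUF2, while the same difference was -0.031 for the log2 RNA signal and 0.45 for the log2 genomic DNA signal. On the RNA channel alone NDC80 stood at -0.0046. The base subunits SPC24 and SPC25 were at -1.01 ± 0.089 and -1.44 ± 0.12, SPC24 being higher on every array by 0.43 ± 0.19. The RNA signals had the opposite order, with SPC24 at -0.95 and SPC25 at -0.68 on the RNA channel alone, and SPC24 minus SPC25 was -0.71 for the log2 genomic DNA signal.

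The Mis12 complex, which receives the Ndc80 complex on the inner kinetochore, had DSN1 near the median gene (0.057 ± 0.10, limma adjusted p = 0.202) and its 3 other subunits far below. NNF1 was the lowest of the group at -1.52, -1.48, -1.53, -1.47 and -1.37 (-1.47 ± 0.061, 0.360 times the median gene, limma adjusted p = 3.69e-10). MTW1, one of the 3 most variable members, was at -1.41, -1.43, -1.46, -1.18 and -1.21 (-1.34 ± 0.13, limma adjusted p = 1.29e-08). Arrays 4 and 5 were again the highest for MTW1, as for MIF2. NSL1 was at -1.26 ± 0.089.

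The division into 2 sets was noticed in these values and is a description. The gap between the sets was present under all 10 ways of computing levels, smallest with loess (0.54), and it was 0.61 on the RNA channel alone. Genomic DNA signals ran the other way, between percentiles 3.94 and 34.5 in the upper set and between 48.7 and 90.1 in the lower set. Their part in the gap was otherwise not tested.

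The Dam1 complex, a ring that couples kinetochores to the ends of microtubules, had 2 genes above, 4 below and 2 in neither direction. Most of its genes lay within a narrow range of the median gene. DAM1, whose product is a main target of the Ipl1 kinase, was at 0.025, 0.028, 0.035, 0.029 and -0.060 (0.011 ± 0.040, limma adjusted p = 0.701). As reported it did not pass. Its sign turned under most of the 9 alternatives and on the arrays of the second scan session alone, with values from -0.0039 to -0.44. With normexp, processed signals and loess it passed below the median gene (limma adjusted p = 0.0125, 0.000137 and 3.39e-06).

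SPC19 was the highest at 0.17, 0.21, 0.050, 0.12 and 0.18 (0.15 ± 0.063, 1.11-fold over the median gene, limma adjusted p = 0.00242). Every array had it above 0, but its genomic DNA signal was at percentile 4.29 and it stood at -0.67 on the RNA channel alone. SPC34 and DAD3 were at 0.084 ± 0.052 and 0.037 ± 0.11, and DAD4, matched by systematic name, at 0.10 ± 0.090. With loess SPC34 and DAD4 lay below the median gene (-0.21 and -0.34). From SPC19 down to DAM1 the values of neighbours overlapped between arrays for each of the 4 pairs, so these 5 subunits have no settled order.

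Below them came DAD1 at -0.14 ± 0.081, DUO1 at -0.58 ± 0.058 (0.52 with loess) and ASK1, a target of the cyclin-dependent kinase, at -0.83 ± 0.075. DAD2 was the lowest at -0.97, -1.06, -1.18, -0.94 and -0.87 (-1.004 ± 0.12, 0.499 times the median gene, limma adjusted p = 5.84e-08). All its values were below the median gene, yet loess placed it at 0.28. The group median rested most on array 1 and was -0.058 without it.

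Checkpoint genes spanned the widest range of the 5 groups as reported, 3.14 log2 units, with 3 above, 5 below and 1 in neither direction. With loess the Centromere-proximal group was wider (-1.62 to 1.94, against -1.46 to 1.17 for Checkpoint). It was also wider with processed signals (-1.52 to 1.51 against -1.44 to 1.05) and slightly so on the RNA channel alone. The 6 spindle checkpoint genes had a median of 0.058 ± 0.044 and the 3 genes of the Aurora B complex one of -1.72 ± 0.067. Aurora B, encoded by IPL1, detaches kinetochores that are under no tension.

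MAD1, which anchors Mad2 at unattached kinetochores, was the highest at 0.83, 0.90, 0.83, 0.80 and 0.74 (0.82 ± 0.057, 1.77-fold over the median gene, limma adjusted p = 1.53e-08). MAD2, whose product binds and holds back Cdc20, was below the median gene at -0.20, -0.26, -0.38, -0.23 and -0.39 (-0.29 ± 0.087, limma adjusted p = 8.51e-05). No values of these partners overlapped, and MAD1 exceeded MAD2 on all 5 arrays by 1.11 ± 0.083, or 2.16-fold. MAD3, another part of the complex that inhibits Cdc20, was at 0.50 ± 0.061.

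The kinase gene BUB1 was at -1.13, -1.22, -1.31, -1.21 and -1.03 (-1.18 ± 0.11, 0.442 times the median gene, limma adjusted p = 1.17e-08), well below BUB3, its binding partner, at 0.091 ± 0.029. BUB3 was higher on every array, by 2.41-fold, although loess brought BUB1 to 0.019 and BUB3 to -0.31, which turns that order. MPS1, the kinase that starts checkpoint signalling and that also acts in spindle pole duplication, was at 0.025 ± 0.067 and passed in neither direction.

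IPL1 was the lowest of all members as reported and under 6 of the 9 alternatives, at -2.39, -2.37, -2.44, -2.22 and -2.18 (-2.32 ± 0.11, 0.200 times the median gene, limma adjusted p = 1.71e-10). It lay below every other member on each array. With normexp IML3 was about as low (-2.12 against -2.12), and IPL1 rose to -1.11 with processed signals and -0.59 with loess, where SPC25 (-1.63) and IML3 (-1.62) were lowest. Its RNA signal was at percentile 15.1, the lowest of the members, and its genomic DNA signal at 54.8, close to the middle. SLI15, the INCENP protein that activates Ipl1, was at -1.72 ± 0.067 and BIR1, the survivin protein, at -0.49 ± 0.075. IPL1 lay below SLI15 on all 5 arrays, an order that turned with processed signals, where SLI15 was at -1.44, and with loess, where it was at -1.46. In 7 of the 8 neighbouring pairs of the Checkpoint group the order was the same on every array.

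Cohesin genes had 4 members above and 2 below the median gene, with none in between. SMC3 and SMC1, the ATPases that form its arms, were highest. SMC3 was at 0.91, 0.88, 0.89, 0.83 and 0.90 (0.88 ± 0.030, 1.84-fold over the median gene, limma adjusted p = 3.42e-09), and SMC1 at 0.86, 0.91, 0.75, 0.74 and 0.80 (0.81 ± 0.073, 1.75-fold, limma adjusted p = 3.43e-08). Their values overlapped, and SMC1 minus SMC3 was -0.072 ± 0.063, close to its spread.

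MCD1, the kleisin that closes the ring and that separase cleaves at anaphase, was at 0.42, 0.44, 0.43, 0.36 and 0.38 (0.41 ± 0.034, 1.32-fold, limma adjusted p = 8.66e-07). It lay below SMC3 on all 5 arrays, and MCD1 minus SMC3 was -0.48 ± 0.028. The same difference was -0.056 for the log2 RNA signal and 0.42 for the log2 genomic DNA signal. It was -0.66 with processed signals and -0.71 with loess, and the part of the genomic DNA signal in it was not tested. IRR1, the gene of the Scc3 subunit that binds the kleisin, was at -0.46 ± 0.038, below the median gene, and MCD1 exceeded it on every array by 0.87 ± 0.063, or 1.82-fold (0.43 for the log2 RNA signal and -0.44 for the log2 genomic DNA signal). The 4 ring subunits spanned 1.34 log2 units.

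The loader, which opens the ring onto DNA, was also unequal. SCC2 was at 0.19, 0.10, 0.055, 0.15 and 0.29 (0.16 ± 0.091, limma adjusted p = 0.00427), above 0 on every array. On the RNA channel alone it stood at -0.14. SCC4, its partner, was the lowest of the group at -0.64, -0.55, -0.51, -0.54 and -0.58 (-0.56 ± 0.049, 0.677 times the median gene, limma adjusted p = 1.51e-07). SCC2 exceeded SCC4 by 0.72 ± 0.13 on all 5 arrays, while SCC2 minus SCC4 was 0.082 for the log2 RNA signal and -0.64 for the log2 genomic DNA signal.

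**Figure D3:**
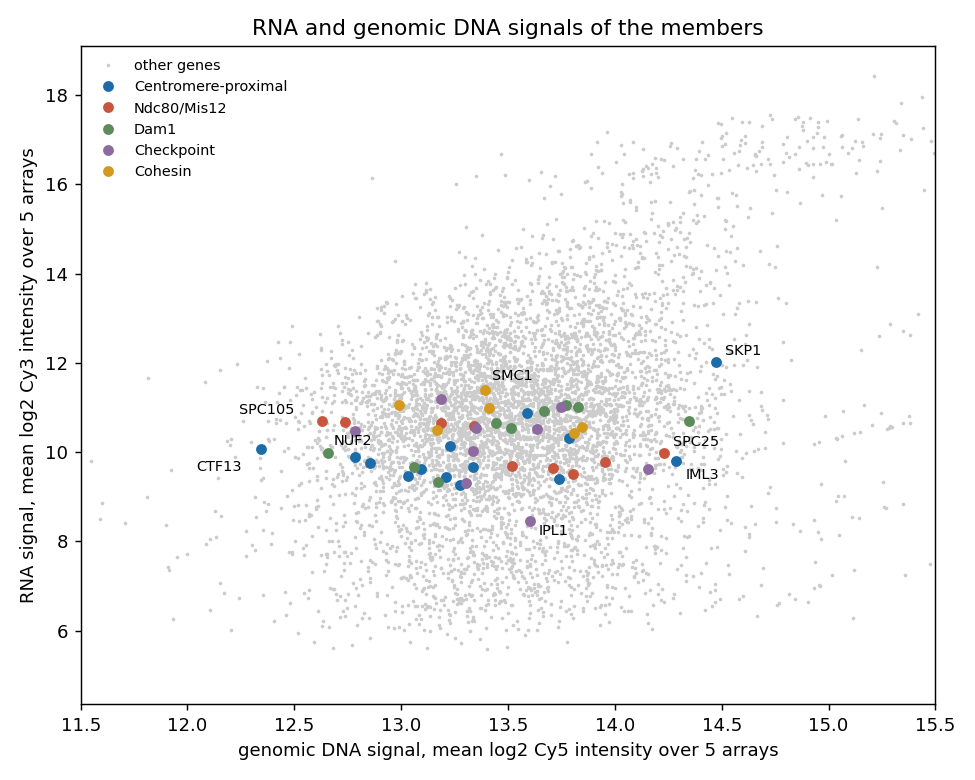
Mean log2 RNA signal (Cy3 intensity, vertical) against mean log2 genomic DNA signal (Cy5 intensity, horizontal) over 5 arrays, members coloured by group and other genes in grey (127 genes lie outside the horizontal axis). Members with low genomic DNA signal such as CTF13 and SPC105 have high levels for their RNA signal, and SPC25 and IML3 the reverse.

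Because the level is a ratio, each member's place reflects both channels. Across the 45 members the level correlated with the RNA signal at a Spearman's rho of 0.81 and with the genomic DNA signal at -0.48, against 0.91 and -0.034 across all genes. The members share the same 5 arrays, and the genomic DNA signal is the divisor of the level, so these values are descriptions. Genomic DNA signal ran from percentile 1.93 to percentile 94.7, with 7 members below percentile 10 and 4 above percentile 90.

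Under all 9 alternative ways of computing levels on the 5 arrays, 16 of the 40 members called kept both call and direction. They were 4 above the median gene (SMC1, SMC3, MCD1 and MAD1) and 12 below it. Below were CSE4, CTF19 and IML3 of the inner kinetochore, SPC24, SPC25, MTW1, NNF1 and NSL1 of the Ndc80 and Mis12 complexes, IPL1, SLI15 and MAD2, and the cohesin loader gene SCC4. No Dam1 gene was among them. With loess 13 of the 40 called members passed in the opposite direction, with processed signals 8, with the RNA channel alone 4 and with normexp 1. The shares of all called genes that kept or reversed their call are not given here, so these counts describe the members alone. Of the 9 alternatives, the highest gene of a group stayed highest in 7 to 9 and the lowest stayed lowest in 6 to 8.

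**Figure D4:**
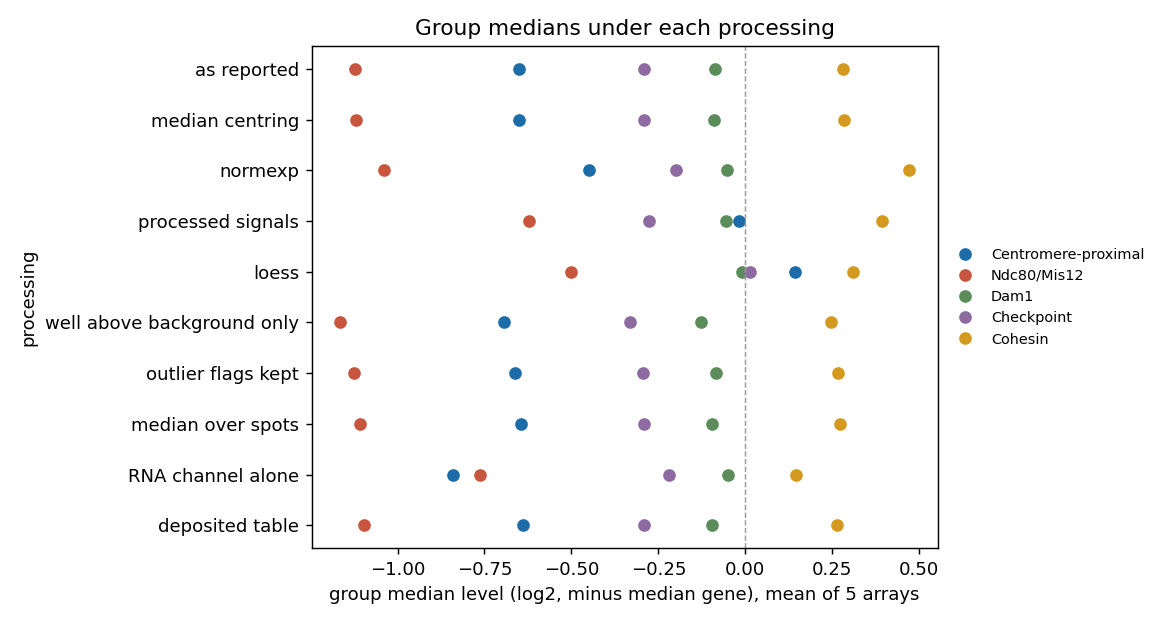
Median level of each group (log2, relative to the median gene, mean of 5 arrays) as reported and under 9 alternative ways of computing levels. Cohesin is highest in all 10 and Ndc80/Mis12 lowest in 9 (not on the RNA channel alone), while Centromere-proximal moves from -0.84 to 0.14.

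The scan sessions were compared to see whether members moved with slide and session. With limma, 0 of the 45 members differed between arrays 4 and 5 and arrays 1 to 3 at an adjusted p of 0.05, against 2.64% of all genes, and 7 members (15.6%) had an unadjusted p under 0.05 against 20.2% of all genes. The largest difference was that of MTW1, 0.24 higher in the second session (limma adjusted p = 0.0633), followed by MIF2 at 0.23 (limma adjusted p = 0.0716). Of the 45, 30 (66.7%) were higher in the second session and 15 lower, where 48.7% of all genes were higher. A fit on spots well above background alone called 13 members, all lower in the second session, and 37.5% of all genes. RNA was well above background in 97.7% to 98.8% of gene spots on arrays 1 to 3. On arrays 4 and 5 the shares were 91.7% and 90.9%, so this filter removed more spots for low RNA signal in the second session. The part of that difference in the calls was not tested. A fit with slide as a random block, which gave a correlation of -0.68 between arrays of a slide, called 13 members, of which 10 were higher, and 35.8% of all genes. The third slide was the whole second session and the first slide held only array 1. That fit therefore cannot separate slide from session, and no conclusion is drawn from its calls.

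Other genes of chromosome segregation gave a frame for these levels. Condensin, the ring that compacts chromosomes and is built on the related Smc2 and Smc4 proteins, had 3 of 5 genes above the median gene and 1 below, with a median of 0.14 ± 0.068. SMC2 was its highest gene at 0.63 ± 0.070 and BRN1, the kleisin, its lowest at -0.37 ± 0.15. SMC1 exceeded SMC2 by 0.18 ± 0.095, on all 5 arrays, though by only 0.019 on the array where they were closest. The difference shrank to 0.028 with processed signals and 0.036 with loess.

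Of the 6 cohesin regulators 1 was above and 5 were below the median gene (-0.58 ± 0.042). With loess 3 of the 6 lay above 0 (median -0.32), and with processed signals 2 did (-0.39). PDS5, which holds the ring on chromosomes, was at 0.55 ± 0.086, and ECO1, the acetyltransferase that locks it during replication, at -1.83 ± 0.065. The anaphase-promoting complex, which the checkpoint restrains, had 1 of 15 genes above, its activator CDH1 (0.32 ± 0.041), and 14 below (-0.48 ± 0.10), down to MND2 (-1.65 ± 0.12). Its median lay below that of the Checkpoint group, which includes the Aurora B genes, on 4 of the 5 arrays. It lay below that of the 6 spindle checkpoint genes alone (0.084, 0.044, -0.013, 0.077 and 0.097) on each array. With processed signals 6 of the 15 genes lay above 0 and with loess 5, each with a median of -0.12. The order against the Checkpoint group turned with processed signals, where that group was at -0.28. The order against the 6 spindle checkpoint genes alone did not turn, since they were at -0.051 with processed signals.

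Among 14 tubulin and motor genes, 5 were above and 8 below the median gene (-0.25 ± 0.076), from TUB2, beta-tubulin, at 2.97 ± 0.054 to the kinesin KIP3 at -1.26 ± 0.043. TUB2 lay above every member of the 5 groups, but at 0.65 with processed signals and 0.24 with loess it lay below several, CTF13 (1.51 and 1.94) among them. The 15 spindle pole body genes had 2 above and 12 below (-0.71 ± 0.051), from NDC1 (0.47 ± 0.056) to MPS2 (-1.92 ± 0.055). With processed signals 5 of the 15 lay above 0 (median -0.37), and with loess 4 did (-0.42). The narrow band of the members was largely shared by these mitotic lists. As reported, 5 of 5 condensin genes and 4 of 6 cohesin regulators lay within 1 log2 unit of the median gene. So did 9 of 15 anaphase-promoting complex, 11 of 14 tubulin and motor and 10 of 15 spindle pole body genes.

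All 7 genes of meiotic segregation were below the median gene (-3.33 ± 0.19), from LRS4, a monopolin subunit (-0.25 ± 0.060), to SPO11, which makes meiotic breaks (-4.37 ± 0.074). With loess 2 of the 7 lay above 0 (median -1.06), and with processed signals 1 did (median -0.94). REC8, the meiotic kleisin that replaces Mcd1 in cohesin, was printed as SPO69, matched by systematic name, and stood at -3.97, -4.06, -4.20, -4.71 and -4.59 (-4.31 ± 0.33, limma adjusted p = 1.01e-09). Arrays 4 and 5 were the lowest (-0.57 for the second session minus the first, limma adjusted p = 0.0215), and its RNA signal was well above background on 3 of 5 arrays. Of the 7 genes, 3 had RNA signal well above background on all 5. MCD1 lay above REC8 on all 5 arrays, by 4.39 to 4.63 log2 units on arrays 1 to 3, where REC8 was well above background. Over all 5 arrays MCD1 minus REC8 was 4.71, and it fell to 2.74 with processed signals and to 1.81 with loess.

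In the order of genes on the chromosomes of the RefSeq R64 table, none of the 48 listed genes lay directly next to another. Chromosome IV carried 9 of them, VII 7, and X and XI 6 each.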

How the data were processed

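The authors deposited 5 scanner files, whose intensity values come from Agilent Feature Extraction (release 10.1.1.1 by the headers). A deposited table of log2 values, RNA over genomic DNA, served as an alternative. The column medians of that table were -2.62, -2.89, -2.91, -3.01 and -2.57, so it was not centred, and 89.4% to 99.6% of its values matched unsubtracted spot medians within 0.001 log2. No genome build was found for the array, and the RefSeq table (R64) served only for names and for neighbouring genes. It held 5756 of 6256 systematic names.

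Local background medians were subtracted, and control spots and spots with an outlier flag (1.41% to 3.81% per array) were left out. Median RNA intensity was 1406 to 1997 per array. The 7 spots per gene were averaged, members keeping at least 6, and arrays were quantile normalized and fitted with limma 3.58.1 in R 4.3.3, with Benjamini-Hochberg adjustment over 6256 genes. The number of arrays limits the precision. The fits were tested on simulated data, with session differences larger than any seen among the members. That test therefore does not cover session differences of the size seen here.

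The members and all lists were chosen with earlier results of these data known. Genes given on every array were fixed key subunits, the highest and lowest gene of each group and the 3 largest SDs. Of other lists the highest and lowest gene and REC8 are named. BUB3, SKP1 and other members appear by mean and SD.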

Additional observations from a re-analysis of the deposited data

Results flagged for a closer look

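In 52 sets of 5 values, 1 for each of the 47 matched genes and each of the 5 group medians, 4 had 1 array far from the other 4 by Dixon's criterion (0.71 for 5 values). Chance picks out about 1 in 20 sets. DAM1 was -0.060 on array 5 and 0.025 to 0.035 on the others. SPC34, its partner in the ring, was -0.0056 on array 3 and 0.091 to 0.13 on the others. SMC3 was 0.83 on array 4 and 0.88 to 0.91 on the others. The median of the Dam1 group was -0.21 on array 1 and -0.075 to -0.025 on the others. The 4 values fell on 4 different arrays.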

How the results depend on the processing

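For the genes given on every array, most values kept their direction. Of all 45 members, 17 lay on the other side of the median gene with loess and 11 with processed signals. The choice of divisor and of within-array correction moved group medians and single genes. Group medians moved as follows. Centromere-proximal was 0.14 with loess, -0.019 with processed signals, -0.45 with normexp, -0.84 on the RNA channel alone and -0.69 with only spots well above background. Ndc80/Mis12 was -0.50, -0.62, -1.04 and -0.76 under the first 4 of these, -1.01 with members by systematic name and -1.02 in scan session 2 alone. Cohesin was 0.47 with normexp, 0.39 with processed signals and 0.15 on the RNA channel alone, Checkpoint 0.015 with loess and -0.20 with normexp, and Dam1 -0.0090 with loess. Members above the median gene numbered 22 with loess and 9 on the RNA channel alone. Members that differed between scan sessions numbered 13 with only spots well above background and 13 with slide as a random block. Leaving out 1 array at a time gave Centromere-proximal medians of -0.66 to -0.65, Ndc80/Mis12 -1.15 to -1.08, Dam1 -0.10 to -0.058, Checkpoint -0.32 to -0.27 and Cohesin 0.27 to 0.29, with 12 to 13 members above and 26 to 27 below.

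Differences that reversed were Centromere-proximal minus Dam1 (0.037 with processed signals, 0.15 with loess), Centromere-proximal minus Checkpoint (0.26 and 0.13), Dam1 minus Checkpoint (-0.024 with loess) and Centromere-proximal minus Ndc80/Mis12 (-0.077 on the RNA channel alone). With loess 17 members lay on the other side of the median gene: MIF2 (0.0052), CBF2 (-0.085), CEP3 (0.46), SKP1 (-1.28), MCM21 (0.92), OKP1 (0.56), AME1 (1.07), CTF3 (0.075), MCM22 (0.20), CHL4 (0.29), DAM1 (-0.44), DUO1 (0.52), DAD2 (0.28), SPC34 (-0.21), BUB1 (0.019), BUB3 (-0.31) and BIR1 (0.10). With processed signals 11 did: CBF2 (-0.036), CEP3 (0.20), SKP1 (-0.94), MCM21 (0.66), OKP1 (0.21), AME1 (0.77), CHL4 (0.21), DAM1 (-0.20), DUO1 (0.11), SPC34 (-0.090) and BUB3 (-0.28). DAD4 did under both (-0.34 and -0.19). With normexp SKP1 (-0.30) and AME1 (0.13) did, beside DAM1. On the RNA channel alone 7 did, CTF13 (-0.58), DSN1 (-0.068), ASK1 (0.043), SPC19 (-0.67), MAD3 (-0.18), MPS1 (-0.10) and SCC2 (-0.14), and NDC80 (-0.0046) with them. DAM1 also reversed with normexp (-0.092), spots well above background (-0.028), medians over spots (-0.0039), the deposited table (-0.012) and session 2 alone (-0.017). The cause was not tested. MPS1 lay at -0.011 with spots well above background. Of the values for the genes given on every array, 346 kept direction and side of the threshold, 18 reversed, 9 lost the threshold and 1 gained it. That count includes settings close to the reported one, such as median centring, and the highest and lowest gene of each group. Size was not part of it. SPC19, for one, kept its direction but went from 0.15 to 1.33 with loess. No paired analysis was possible because all 5 arrays form 1 group. Every member had RNA and genomic DNA signal well above background on all 5 arrays, whereas 4 of the 7 meiotic genes, REC8 among them, did not have RNA signal well above background on all 5.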
